A study of Mus musculus with 5 samples.

Results

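The genes described here were 9 complement components and receptors, C1qa, C1qb, C1qc, C3, C6, Cfb, Cfi, C3ar1 and C5ar1, taken by symbol from the 32285 genes measured by single-cell RNA sequencing (scRNA-seq) of mouse kidney. They were picked because their levels by cell class and by condition in these same libraries had already been seen, so their levels are given as a description and carry no test. The study compared the acute phase (acute kidney injury, AKI) and the later chronic phase (chronic kidney disease, CKD) of the damage done by aristolochic acid I (AAI), a plant toxin that is taken up by proximal tubule cells. Male wild-type C57BL/6 mice of 8 to 10 weeks were injected intraperitoneally with AAI at 3 mg/kg every 3 days over 2 weeks and examined at the end of the injections (AKI, 2 libraries) or after a further 2 weeks without AAI (CKD, 2 libraries), and control mice received vehicle (1 library). No transgene or gene deletion was involved in any group. Whether each library came from a single mouse is not stated, so the spread between libraries of a group may be partly technical, and differences from the 1 control library are given as values with no test.

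Complement is a cascade of plasma and cell surface proteins that tags debris and microbes, calls in leukocytes and can puncture membranes. C1q, built from the chains A, B and C, starts the classical route when it binds immune complexes or dying cells, factor B (Cfb) forms the protease of the alternative route, and both routes meet at C3. Cleaved C3 leads to the C3a and C5a fragments, sensed by the receptors C3ar1 and C5ar1, and to the membrane attack complex, of which C6 is a part, while factor I (Cfi) inactivates C3b and C4b. Liver supplies most plasma complement, but kidney tubule cells and macrophages are known to make several components locally.

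After filtering, 53718 cells remained, with 8496 in control, 10199 and 9910 in AKI 1 and AKI 2, and 16330 and 8783 in CKD 1 and CKD 2, holding 55435061 to 81658854 unique molecular identifiers (UMIs, one per captured RNA molecule) per library. The cells were grouped without using any complement gene, and 15 cell classes were named from marker genes. A level below is the number of UMIs of a gene per 10000 UMIs of a cell class in a library, with exact Poisson intervals that cover counting error only. Free RNA in the cell suspension puts some UMIs of a gene into cells that do not make it, so the level in T lymphocyte-like cells is given alongside as a background. Of the control cells, 91 carried the barcode of a CKD 2 cell that was over 20 times deeper, but 0 of the 810 control macrophage-like cells and 1 of the 1015 control proximal tubule-like (PT-like) cells did.

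The macrophage-like class held 4140 cells, with 810 in control, 789 and 1127 in AKI, and 912 and 502 in CKD. Its 10 macrophage markers summed to 116 UMIs per 10000 in control, 277 and 290 in AKI and 72.0 and 92.4 in CKD, against 0.187 to 16.9 over the other named classes and libraries. The class was made of a large cluster led by Ccl8, Ccl12 and Ccl7 and a smaller one with Slc15a3 and Zeb2 among its leading genes. A further pair of clusters was led by Ctsk, Acp5 and Mmp9, genes best known from bone-resorbing osteoclasts, and the macrophage gene Adgre1 stood at 0.0586 and 0.0985 UMIs per 10000 in the larger of them in CKD, against 1.19 and 1.03 in the Ccl8-led cluster. In AKI it stood at 1.502 and 1.45 in the same Ctsk-led cluster, so the AKI and CKD cells of that cluster were unlike each other in this gene. The study counts cells with these leading genes among its macrophages. They made up 0.706% of control cells, 1.26% and 1.89% of AKI cells, and 11.2% and 3.63% of CKD cells, and their values are given apart from the macrophage-like class.

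Sequences just before the start of transcription are shown for 3 members whose levels carry the main patterns below, C1qb and C1qc, whose levels had the same order of groups in macrophages, and C3, which differed most between AKI and CKD in PT-like cells. The 3 C1q genes lay side by side within 18719 bases of chromosome 4, from 136880126 to 136898844 (RefSeq, GRCm38.p6), with no other annotated gene between them. The stretches of 250 bases come from RefSeq (GRCm38.p6) and are written 5′ to 3′ on the strand of the gene, which is the minus strand in each case, C1qb at chr4:136886201-136886450, C1qc at chr4:136892915-136893164 and C3 at chr17:57228137-57228386. Capitals mark matches, on either strand, to the motifs searched.
C1qb: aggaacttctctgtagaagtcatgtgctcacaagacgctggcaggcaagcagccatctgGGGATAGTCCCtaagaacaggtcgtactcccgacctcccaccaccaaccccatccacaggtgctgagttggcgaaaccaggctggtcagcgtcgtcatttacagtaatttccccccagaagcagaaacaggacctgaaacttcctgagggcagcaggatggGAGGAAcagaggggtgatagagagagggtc
C1qc: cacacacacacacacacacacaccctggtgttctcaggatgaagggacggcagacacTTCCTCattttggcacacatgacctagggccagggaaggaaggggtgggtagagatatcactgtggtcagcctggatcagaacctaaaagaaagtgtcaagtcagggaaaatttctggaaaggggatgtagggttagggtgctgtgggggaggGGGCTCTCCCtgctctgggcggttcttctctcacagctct
C3: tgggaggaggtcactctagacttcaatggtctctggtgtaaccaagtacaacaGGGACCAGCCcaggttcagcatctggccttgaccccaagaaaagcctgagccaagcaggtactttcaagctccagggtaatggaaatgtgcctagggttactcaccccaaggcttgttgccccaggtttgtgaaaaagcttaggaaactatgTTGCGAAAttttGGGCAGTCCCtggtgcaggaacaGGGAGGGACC
The letters searched, on both strands and with N for any base, were GAGGAA for PU.1, GGGA and CC with 4 bases between them for NF-kB, TGANTCA for AP-1, TTGCNNAA for C/EBP, GAAA repeated after 2 bases for interferon response elements and TTCNNNGAA for STAT. GAGGAA occurred 1 time in each of C1qb (first base at -30 from the start) and C1qc (-193), and in 23.4% of the 32536 distinct mouse promoters of this length. The NF-kB letters matched C1qb at -191 and -190, an overlapping pair, C1qc at -40 and C3 at -197, -33 and -10, and was present in 17.7% of promoters. TTGCNNAA matched C3 at -45 (9.57% of promoters). The letters for AP-1, interferon response elements and STAT had no match in these 3 windows, against 6.73%, 2.98% and 7.04% of promoters. Promoters of 6 of the 9 members were in the table used, and C1qa, Cfb and Cfi had no entry. Of the members searched but not shown, C3ar1 matched only the AP-1 letters, at -22. C5ar1 and C6 matched none of the letters.

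The 3 C1q chains were macrophage genes in every library, with their highest levels in AKI and their lowest in CKD. In macrophage-like cells C1qa stood at 39.9 UMIs per 10000 in control, 48.6 and 49.0 in AKI, and 33.0 and 33.7 in CKD. The 2 AKI libraries were close together, the 2 CKD libraries were close together, and the groups did not overlap, with AKI above CKD by 1.46-fold (log2 ratio of CKD to AKI -0.55) and above the control library by 1.22-fold. C1qb stood at 39.3, then 49.4 and 50.4, then 36.5 and 35.7 UMIs per 10000 in the same order, which put AKI 1.38-fold above CKD. C1qc stood at 24.3, then 31.0 and 30.5, then 19.7 and 21.0 UMIs per 10000, with AKI 1.51-fold above CKD. In T lymphocyte-like cells, the background level of C1qa was 0.0637 in control, 0.323 and 0.439 in AKI and 0.157 and 0.0666 in CKD, far below the macrophage-like level in each library. Dendritic-like cells held C1qa at 0.262 in control, 1.03 and 1.42 in AKI and 0.484 and 0.106 in CKD, and fibroblast/pericyte-like cells at 0.0135, then 0.359 and 0.719, then 1.68 and 0.0431, where the 2 CKD libraries differed widely.

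The chains kept nearly fixed proportions. In macrophage-like cells the ratio of C1qb to C1qa UMIs was 0.985 in control, 1.02 and 1.03 in AKI, and 1.11 and 1.06 in CKD, and the ratio of C1qc to C1qa was 0.609, 0.638 and 0.621, and 0.596 and 0.623. All 3 chains are needed for a C1q molecule. Macrophage-like cells held 95.4% of all C1qa UMIs of the control cells, 84.2% and 80.9% of those in AKI, and 75.3% and 87.5% of those in CKD.

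The share of macrophage-like cells with any C1qa UMI was also lower in CKD. C1qa was detected in 79.9% of macrophage-like cells in control, in 87.6% and 91.7% in AKI, and in 71.8% and 67.1% in CKD. With each cell thinned to 1000 UMIs the shares were 79.2%, then 85.7% and 87.0%, then 62.0% and 59.6%, while T lymphocyte-like cells thinned in the same way gave 0.726%, then 3.75% and 5.21%, then 2.29% and 0.802%. The order of the groups was therefore the same at equal depth. The summed macrophage markers given above had the same order of groups, and their part in the C1q levels was not tested.

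Within each of the macrophage clusters C1qa was higher in the AKI libraries than in the CKD libraries, but the clusters stood far apart. In the Ccl8-led cluster C1qa stood at 44.5 UMIs per 10000 in control, 50.7 and 51.4 in AKI, and 34.3 and 35.7 in CKD. Almost every cell of that cluster had a C1qa UMI in control (99.7%) and AKI (98.5% and 98.1%), but only 78.7% and 77.2% did in CKD. Median depth in this cluster was 3776 UMIs per cell in control and 4026 in CKD 1, against 10865 and 11096 in AKI and 11294 in CKD 2, so the lower CKD shares were found at both depths. In the smaller cluster C1qa stood at 3.39 in control, 7.74 and 11.2 in AKI, and 2.33 and 4.01 in CKD. No monocyte class was named here. A monocyte-like cluster led by Chil3 was named when complement genes were used in the grouping. It held 19 cells in control, 32 and 42 in AKI, and 398 and 81 in CKD. A lower mitochondrial limit gave a like cluster of 16, then 23 and 38, then 375 and 88 cells. Macrophage-like C1qa stayed lower in CKD than in AKI in both runs, but the class was not made of the same cells there. The Ccl8-led cluster held 1117 cells of CKD 1 with complement genes in the grouping, against 799 in the main run. At the lower mitochondrial limit it held 855. The part of the monocyte-like cells in the CKD levels and shares was not tested.

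The clusters led by Ctsk and Acp5 had the widest gap between conditions. As a pair, they held C1qa at 12.7 UMIs per 10000 in control (60 cells), 34.2 and 38.4 in AKI (129 and 187 cells), and 2.18 and 2.00 in CKD (1821 and 319 cells). Ctsk, the gene for the collagen-degrading protease cathepsin K, had the reverse order in the larger of these clusters, at 0.176 and 5.30 UMIs per 10000 in AKI and 52.4 and 49.0 in CKD, with 10.4 in control. The AKI and CKD cells of that cluster thus differed in Ctsk and Adgre1 as well, and their C1qa levels compare unlike cells. The cluster led by Acp5, the gene for tartrate-resistant acid phosphatase, came almost entirely from CKD 1 (1060 of its 1107 cells, 95.8%), with C1qa at 5.26, and so it cannot be told apart from a property of that library. Where these cells were counted as macrophages, the C1qa level was 38.5 in control, 46.3 and 47.0 in AKI, and 12.0 and 12.9 in CKD, so the size of the difference, though not its direction, turned on which cells were called macrophages.

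**Figure D1:**
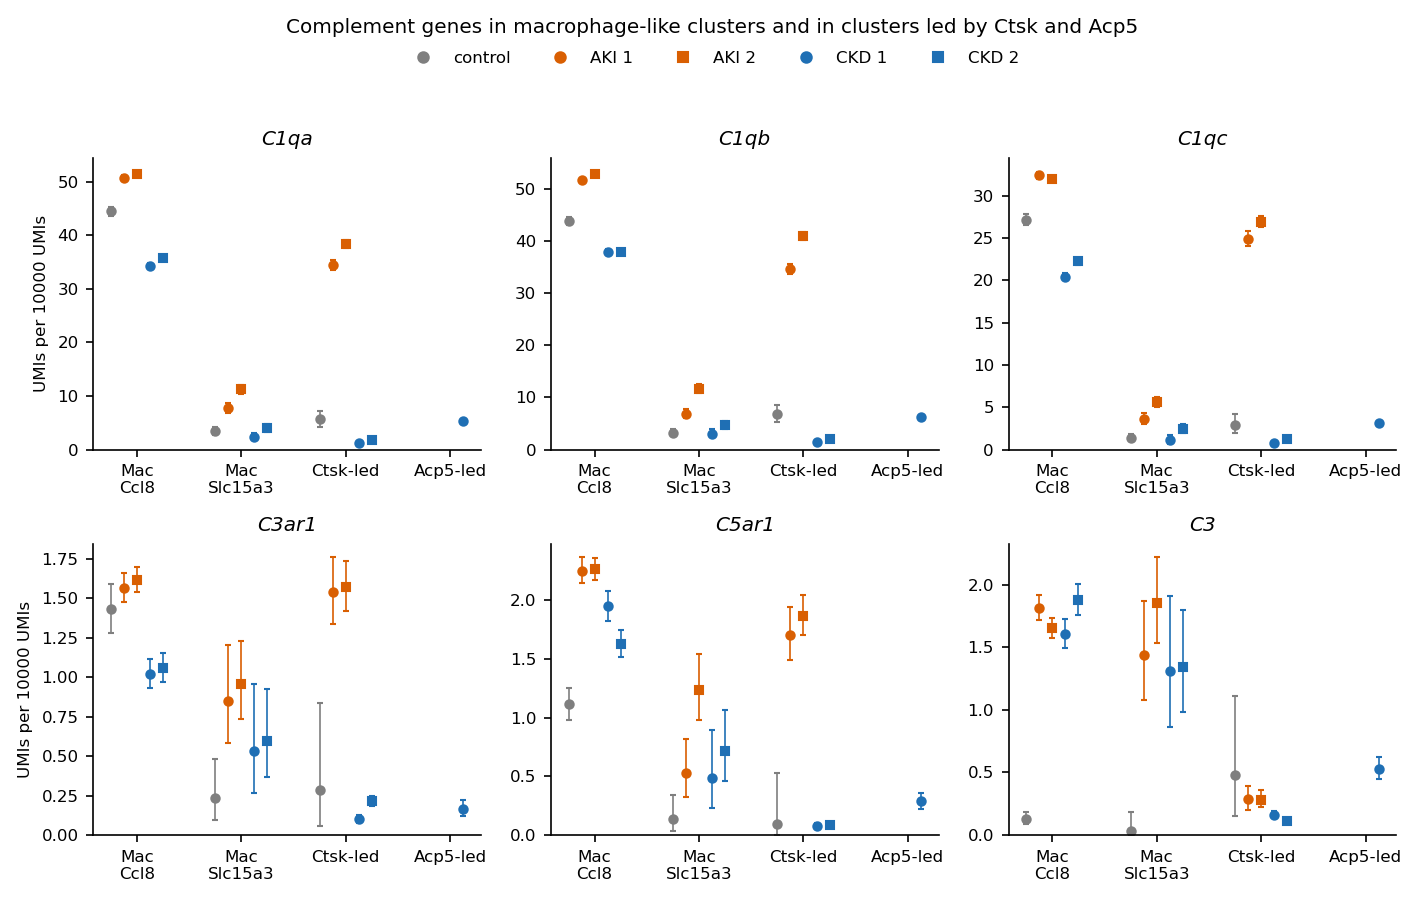
Levels of C1qa, C1qb, C1qc, C3ar1, C5ar1 and C3, in UMIs per 10000 UMIs on linear axes from 0, in the Ccl8-led macrophage-like cluster (Mac) and the smaller one, marked by Slc15a3, and in the clusters led by Ctsk and by Acp5. Each point is a library with at least 20 cells and bars are 95% exact Poisson intervals for counting error. In CKD, C1qa was 34.3 and 35.7 in the Ccl8-led cluster and 1.16 and 1.71 in the Ctsk-led cluster.

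C3, the component on which all routes converge, had its largest difference between AKI and CKD in PT-like cells, among the 12 classes with enough cells, and the opposite difference in stromal cells. In PT-like cells C3 stood at 1.00 UMIs per 10000 in control, 7.05 and 11.05 in AKI, and 1.42 and 2.01 in CKD. Both AKI libraries lay above all others, 9.01-fold above control and 5.29-fold above CKD on average, and both CKD libraries lay above the control library. C3 was detected in 4.04% of PT-like cells in control, in 36.5% and 55.5% in AKI, and in 18.4% and 24.7% in CKD, and in 1.43%, then 21.7% and 34.1%, then 7.28% and 9.29% after thinning to 1000 UMIs. Background in T lymphocyte-like cells was 0.0144 in control, 0.114 and 0.174 in AKI, and 0.0576 and 0.0226 in CKD.

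All 3 PT-like clusters showed the AKI libraries above the CKD libraries for C3. The cluster led by Spink1 and Slc4a4 had the highest levels, at 2.07 UMIs per 10000 in control, 7.95 and 11.7 in AKI, and 1.93 and 2.47 in CKD. The CKD libraries thus lay on either side of the control level, which came from 559 UMIs in 31 of 215 cells (14.4%). C3 was detected in 65.2% and 79.0% of the cells of this cluster in AKI, and in 37.8% and 42.1% in CKD. The cluster led by Miox, the gene of a proximal tubule enzyme of inositol breakdown, went from 0.0342 in control to 2.61 and 3.33 in AKI and stood at 0.546 and 0.649 in CKD. In the cluster with the transporter gene Slc5a12 among its leading genes, C3 was 0.0535 in control, 1.88 and 7.93 in AKI, and 0.665 and 1.03 in CKD, with the 2 AKI libraries further apart than in the other clusters. Injury markers of tubule cells (7 genes, among them Havcr1, Vcam1 and Sox9) had the same order in the PT-like class, summing to 1.60 in control, 5.16 and 6.25 in AKI, and 2.53 and 2.70 in CKD. The 10 macrophage markers summed in the PT-like class to 4.46, then 10.2 and 8.02, then 6.75 and 4.30, and the 11 proximal tubule markers to 92.7, then 57.9 and 57.0, then 63.9 and 74.8. The mean mitochondrial share of UMIs over all kept cells was 12.6% in control, 5.75% and 5.43% in AKI, and 8.88% and 4.98% in CKD. With at most 15% allowed, the log2 ratio of AKI to control for C3 went from 3.17 to 6.07. At that limit the PT-like class was not made of the same cells. A cluster of 901 cells, with Spink1 and Slc4a4 among its leading genes, was then named injured tubule-like. In the main run the Spink1-led cluster held 559 of the 571 C3 UMIs of control PT-like cells. The part of these values in the C3 level was not tested.

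A small cluster of 195 cells led by Ncam1, Msmp and Akap12 held C3 at 9.14 UMIs per 10000 in control, 7.31 and 13.4 in AKI, and 6.85 in CKD 1, with 8 cells in CKD 2, too few to give a level. Its control level was inside the range of the AKI libraries. These cells held 68.4% of all C3 UMIs of the control cells, whereas PT-like cells held 21.7%. In AKI, PT-like cells held 53.8% and 61.7% of the C3 UMIs, and in CKD 37.8% and 20.3%.

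In fibroblast/pericyte-like cells, the stromal class that makes collagen and wraps the capillaries, C3 was higher in CKD than in AKI. It stood at 1.79 UMIs per 10000 in control, 1.48 and 4.66 in AKI, and 10.2 and 10.9 in CKD, with CKD 3.44-fold above AKI (log2 ratio 1.78, or 1.18 without AKI 1 and 2.84 without AKI 2). The CKD libraries were close together and above all others, while the AKI libraries lay on either side of control. The class was small, with 125 cells in control, 82 and 75 in AKI, and 139 and 48 in CKD. Its 8 fibroblast and pericyte markers summed to 151 in control, 71.6 and 103 in AKI, and 124 and 137 in CKD, its 10 macrophage markers to 16.4, then 11.5 and 14.6, then 16.9 and 15.5, and its 11 proximal tubule markers to 2.67, then 0.602 and 0.866, then 5.14 and 0.474. Its 10 T lymphocyte markers summed to 0.121, then 1.45 and 1.85, then 5.55 and 7.69, the order of C3 between AKI and CKD, and its 8 endothelial markers to 2.91, then 18.8 and 7.10, then 1.31 and 5.19, the reverse order. The part of these shifts in the C3 level was not tested.

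Macrophage-like cells held C3 at 0.116 UMIs per 10000 in control, 1.80 and 1.67 in AKI, and 1.60 and 1.84 in CKD. Both injured groups lay well above the control library, 14.9-fold for AKI, and the AKI and CKD libraries overlapped. In the clusters led by Ctsk and Acp5, C3 was 0.344 in control, 0.297 and 0.326 in AKI, and 0.253 and 0.140 in CKD. With these cells counted as macrophages, C3 was 0.128, then 1.56 and 1.41, then 0.683 and 0.725, and the AKI and CKD libraries no longer overlapped. In thick ascending limb-like cells C3 was 0.0160, then 0.844 and 0.812, then 0.123 and 1.32, with the CKD libraries on either side of AKI. Of the 12 classes with enough cells in all libraries, C3 was lower in both CKD libraries than in both AKI libraries in 5. It was higher in 1 and overlapping in 6. How many of all genes separated the libraries in this way was not counted. The 5 included T lymphocyte-like cells, the background, at a mean of 0.144 in AKI and 0.0401 in CKD. Intercalated-like cells, at 0.126 and 0.0475, were also among them and near that background.

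**Figure D2:**
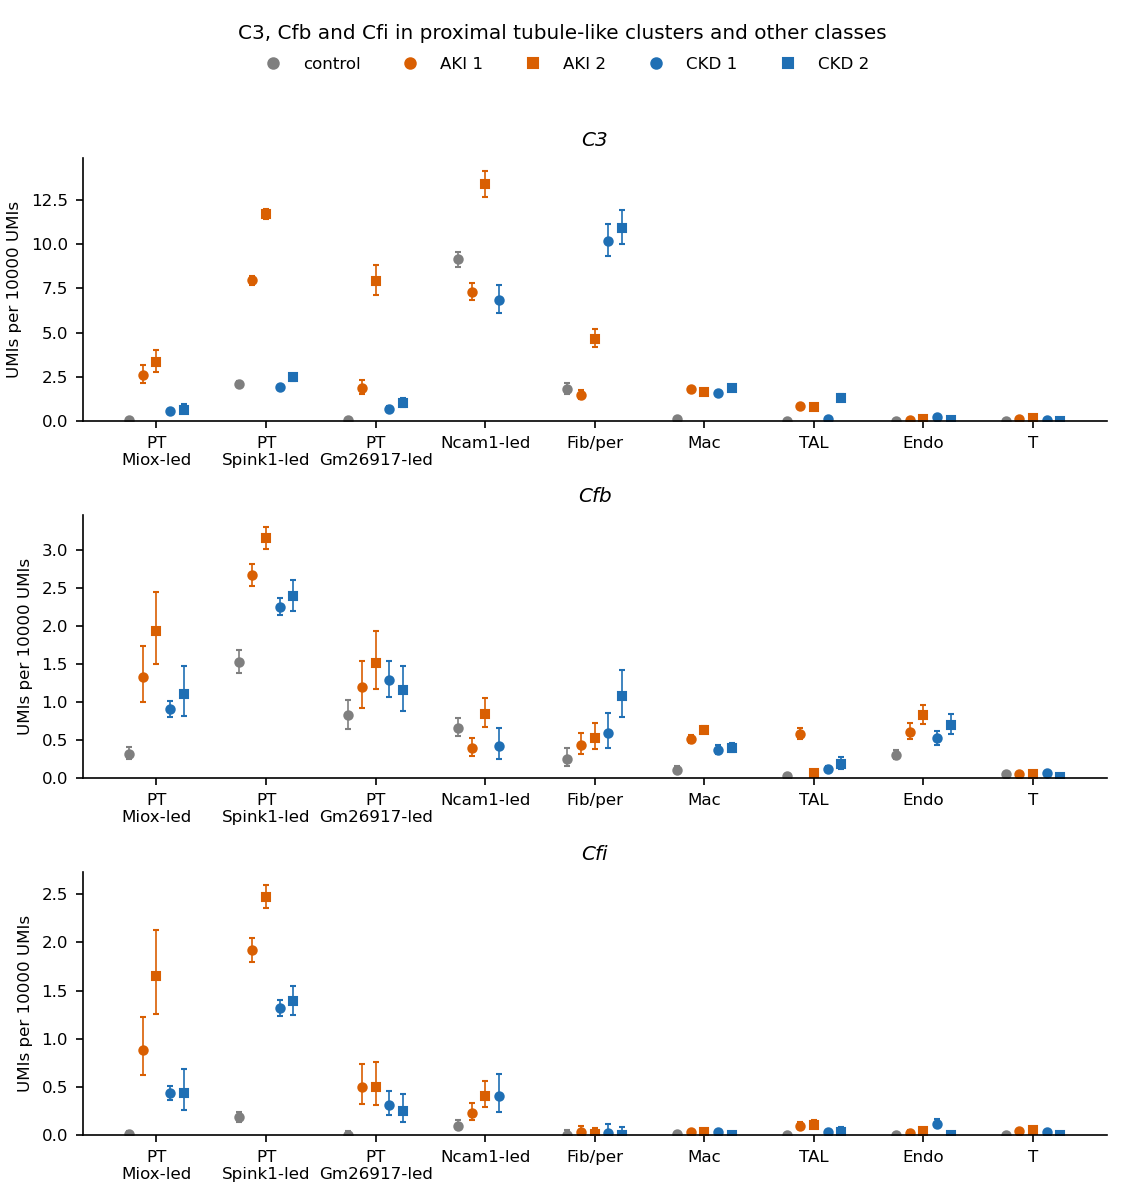
Levels of C3, Cfb and Cfi, in UMIs per 10000 UMIs on linear axes from 0, in the PT-like clusters (the Gm26917-led one has Slc5a12 among its leading genes), the Ncam1-led cluster, and fibroblast/pericyte-like (Fib/per), macrophage-like (Mac), thick ascending limb-like (TAL), endothelial-like (Endo) and T lymphocyte-like (T) cells. Each point is a library and bars are 95% exact Poisson intervals for counting error. C3 was highest in AKI in the PT-like clusters and highest in CKD, at 10.2 and 10.9, in fibroblast/pericyte-like cells.

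Factor B, the alternative route protease, was mainly a PT-like transcript too, with a narrower range than C3. In PT-like cells Cfb stood at 0.978 UMIs per 10000 in control, 2.45 and 2.99 in AKI, and 1.77 and 2.03 in CKD. AKI was 2.78-fold above control and 1.43-fold above CKD, and the groups did not overlap. PT-like cells held 52.6% of the Cfb UMIs in control, 52.6% and 59.5% in AKI, and 61.3% and 48.7% in CKD.

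Cfb was above background outside the tubule as well. In macrophage-like cells it stood at 0.105 in control, 0.511 and 0.633 in AKI, and 0.372 and 0.397 in CKD, against 0.0105 to 0.0635 in T lymphocyte-like cells over the 5 libraries. Endothelial-like cells held 0.305 in control, 0.609 and 0.833 in AKI, and 0.524 and 0.702 in CKD, with the AKI and CKD libraries overlapping. Fibroblast/pericyte-like cells held 0.256 in control, 0.433 and 0.533 in AKI, and 0.594 and 1.08 in CKD, so that, as for C3, the CKD libraries were the higher ones (1.73-fold). In the thick ascending limb-like class, Cfb was 0.0206 in control, 0.578 and 0.0646 in AKI, and 0.121 and 0.185 in CKD, and the AKI level came from a single library.

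Factor I, the protease that switches off C3b and C4b, was almost absent from control PT-like cells and was held in PT-like cells after AAI. Cfi stood there at 0.0932 UMIs per 10000 in control, 1.72 and 2.31 in AKI, and 0.976 and 1.08 in CKD. AKI was 21.7-fold above control and 1.96-fold above CKD, and both CKD libraries remained above control. The Spink1-led cluster had the highest Cfi level, at 0.185 in control, 1.92 and 2.47 in AKI, and 1.32 and 1.39 in CKD. The Miox-led cluster held 0.0147, then 0.888 and 1.65, then 0.432 and 0.433.

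Intercalated-like cells, the acid-base cells of the collecting duct, held 35.9% of the Cfi UMIs in control, close to the 34.6% of PT-like cells, at a level of 0.0533. In AKI the PT-like share was 74.9% and 80.3%, and in CKD 71.9% and 81.2%. The intercalated-like level was 0.177 and 0.220 in AKI and 0.266 and 0.191 in CKD, with the groups overlapping. T lymphocyte-like cells had 0.00206 in control, 0.0371 and 0.0493 in AKI, and 0.0323 and 0.00502 in CKD.

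C6, which joins C5b to begin the membrane attack complex, was found almost only in the AKI libraries. Over all barcodes it had 0 UMIs in control, 74 and 164 in AKI, and 1 and 0 in CKD. Macrophage-like cells held 52 C6 UMIs in 27 of 789 cells (3.42%) of AKI 1 and 108 in 59 of 1127 cells (5.24%) of AKI 2, and none in the other libraries. The levels were 0.0692 (interval 0.0517 to 0.0907) and 0.0994 (0.0815 to 0.120) UMIs per 10000. A count of 0, taken to allow up to 3 counts, gave limits of 0.0112 in control, 0.00596 in CKD 1 and 0.00584 in CKD 2.

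Single cells held up to 8 C6 UMIs, and T lymphocyte-like cells had C6 in 3 of 5909 cells of AKI 1 and 5 of 5680 cells of AKI 2. After thinning to 1000 UMIs, C6 was detected in 0.541% and 0.922% of AKI macrophage-like cells, and in 0 of those in control, CKD 1 and CKD 2, which allowed a share of up to 0.393%, 0.329% and 0.628%. Most of the C6 was in the Ccl8-led cluster, with 52 UMIs in 27 of 605 cells and 106 UMIs in 57 of 855 cells. Macrophage-like cells held 83.9% and 76.6% of the C6 UMIs of the AKI libraries. Fibroblast/pericyte-like cells held a further 6 UMIs in 4 of 82 cells and 18 UMIs in 9 of 75 cells, levels of 0.0633 (0.0232 to 0.138) and 0.240 (0.142 to 0.379) UMIs per 10000, close to the macrophage-like level in AKI 1 and above it in AKI 2. Their count was 0 in the other libraries, with exact Poisson intervals up to 0.0497 in control and 0.0756 and 0.0794 in CKD. These intervals overlap that of AKI 1, and they allow more than the 3 counts used for macrophage-like cells. These 4 and 9 fibroblast/pericyte-like cells with C6 had median totals of 29668.5 UMIs in AKI 1 and 25648 in AKI 2. The medians of the whole class were 7147.5 and 7076. In the cells with C6, the macrophage genes Csf1r and Adgre1 were at 0 UMIs. They were also low in the cells without C6, at 0.155 and 0.0478 per 10000 in AKI 1 and 0.146 and 0.110 in AKI 2. Col1a1 stood at 18.1 and 9.48 with C6 and 5.99 and 8.62 without, and Col3a1 at 14.4 and 20.3 against 9.11 and 14.9. Dcn stood at 17.4 and 12.4 with C6 and 13.5 and 46.7 without, so in AKI 2 it was lower with C6. C1qa stood at 0.182 and 0.782 in these cells, against 0.382 and 0.696 in the fibroblast/pericyte-like cells without C6.

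**Figure D3:**
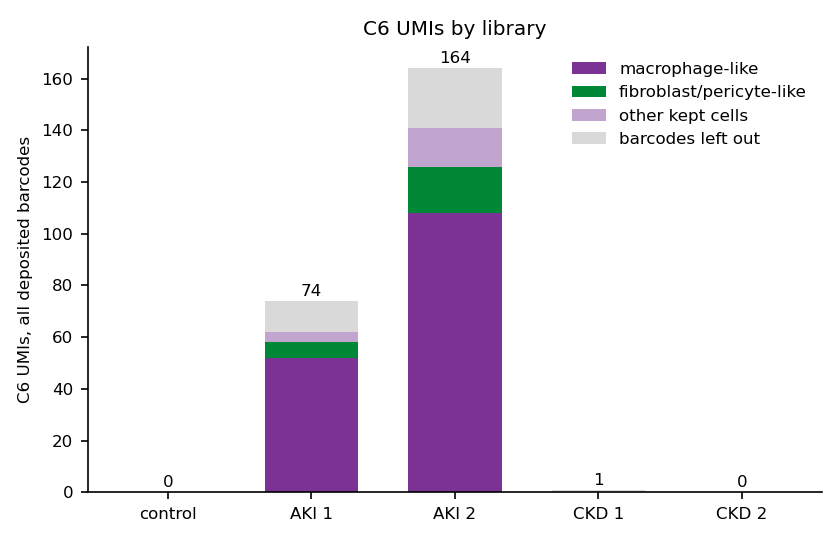
C6 UMIs over all barcodes of each library, as stacked bars from 0 with the total above each bar, split into macrophage-like cells, fibroblast/pericyte-like cells, other kept cells and barcodes left out by the filters. The AKI libraries had 74 and 164 UMIs, 52 and 108 of them in macrophage-like cells, and the other libraries had 0 or 1.

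The receptor for C3a had its highest level in macrophages, and its order of groups was that of C1q. C3ar1 stood in macrophage-like cells at 1.30 UMIs per 10000 in control, 1.53 and 1.58 in AKI, and 1.00 and 1.03 in CKD. AKI was 1.53-fold above CKD and 1.20-fold above control. Within the Ccl8-led cluster the levels were 1.43, then 1.57 and 1.62, then 1.02 and 1.06, so the CKD libraries were lower inside that cluster as well. In the clusters led by Ctsk and Acp5, C3ar1 was 0.482 in control, 1.48 and 1.54 in AKI, and 0.116 and 0.219 in CKD. With these cells counted as macrophages, C3ar1 was 1.25, then 1.52 and 1.57, then 0.400 and 0.497, and the log2 ratio of CKD to AKI went from -0.62 to -1.79. T lymphocyte-like cells had at most 0.0203.

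The C5a receptor differed from C3ar1 in its control level and in its second cell class. C5ar1 stood in macrophage-like cells at 1.00 UMIs per 10000 in control, 2.17 and 2.20 in AKI, and 1.89 and 1.57 in CKD. AKI was 2.18-fold above control and 1.26-fold above CKD, and here both CKD libraries lay above control, which was not so for C3ar1 or the C1q chains. In the Ccl8-led cluster the levels were 1.11, then 2.25 and 2.26, then 1.95 and 1.63. In the clusters led by Ctsk and Acp5, C5ar1 was 0.344, then 1.64 and 1.85, then 0.130 and 0.105. With these cells counted as macrophages the levels were 0.970, then 2.08 and 2.13, then 0.693 and 0.607, so that both CKD libraries lay below control and the log2 ratio of CKD to AKI went from -0.34 to -1.70.

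Neutrophil-like cells, the other class known for sensing C5a, had higher C5ar1 levels than macrophage-like cells, at 5.74 and 7.97 UMIs per 10000 in AKI and 5.86 and 8.18 in CKD. These groups overlapped, and they rested on 25 to 48 cells per library, with 19 cells in control, too few to give a level. Macrophage-like cells held 88.7% of the C5ar1 UMIs in control, 77.9% and 76.7% in AKI, and 71.8% and 80.4% in CKD. T lymphocyte-like cells had at most 0.0295.

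**Figure D4:**
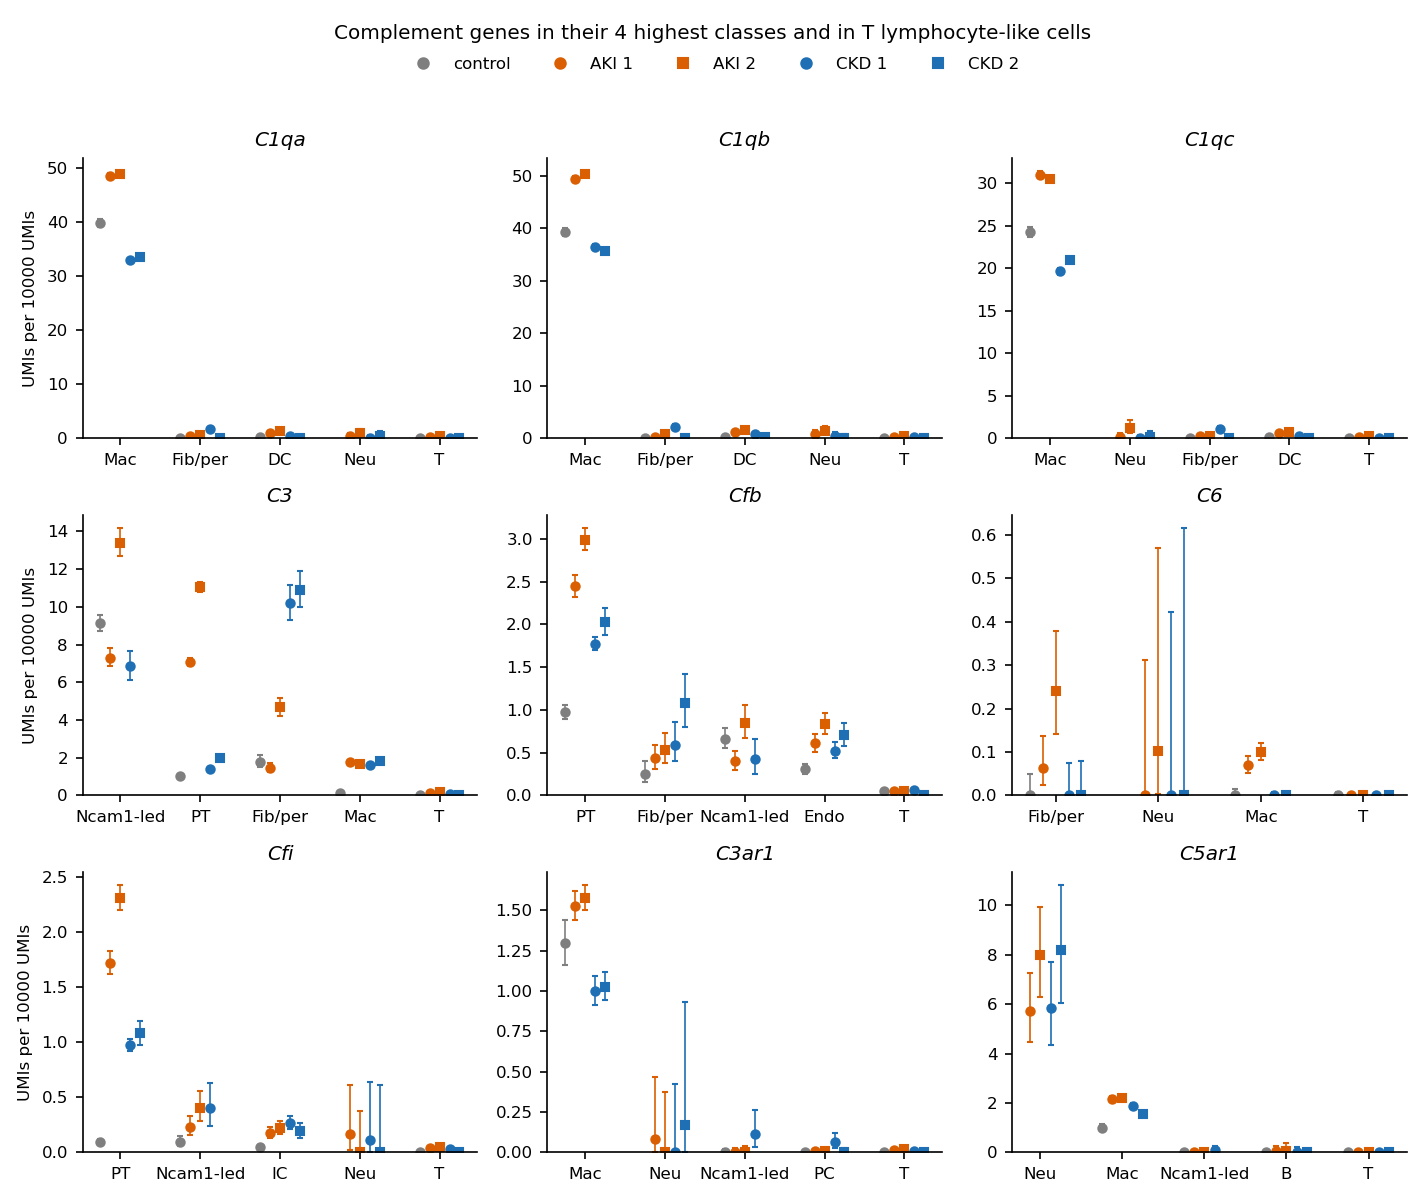
Levels of the 9 genes, in UMIs per 10000 UMIs on linear axes from 0, in the 4 classes where each was highest and in T lymphocyte-like cells (3 classes for C6). Points are libraries, bars are 95% exact Poisson intervals for counting error, and Mac is macrophage-like, Fib/per fibroblast/pericyte-like, DC dendritic-like, Neu neutrophil-like, PT proximal tubule-like, Endo endothelial-like, IC intercalated-like, PC principal-like and B B lymphocyte-like. Ncam1-led is the small cluster led by that gene. The C1q chains and C3ar1 were highest in macrophage-like cells, C5ar1 in neutrophil-like cells, and Cfb and Cfi in PT-like cells. The exception was control Cfi, at 0.0966 in the Ncam1-led cluster and 0.0932 in PT-like cells.

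Across 72 pairs of cell class and library, the genes most like each member were drawn from 11085 genes by Pearson's r of log2 levels, given without a test since the points share libraries, depth and free RNA. For all 3 C1q chains the nearest genes were Ms4a7, Ccl12 and Fcgr1 (r from 0.92 to 0.96), and C1qa and C1qb reached 0.99 with each other. C3ar1 was nearest to Ms4a7 (0.95), Adgre1 (0.94) and Pf4 (0.93). Ms4a7, Fcgr1 and Adgre1 were among the macrophage markers that named the classes, so their closeness to the C1q chains and C3ar1 was partly built in. C5ar1 was nearest to the myeloid receptor genes Clec5a (0.97), Cd300ld (0.96) and Cd33 (0.96). C3 was nearest to the ceruloplasmin gene Cp (0.84), the chemokine gene Cxcl1 (0.83) and Palld (0.80). Cfi was nearest to Slc51a (0.85), Npl (0.84) and Gpd1 (0.84), and Cfb to Calml4, Abcg2 and Dpp7 (0.83 each). C6, with counts in few pairs, reached no more than 0.61 with Egr2, 0.60 with Slc7a2 and 0.60 with Cck.

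The rest of the pathway was taken from a list of 47 other complement genes, of which 46 were measured, and was compared between CKD and AKI within each class. UMIs were summed per library and tested with edgeR's quasi-likelihood method, 2 libraries against 2, with Benjamini-Hochberg adjustment over all genes of the class and a threshold of 0.05. In macrophage-like cells 2 of 17 tested genes passed, both lower in CKD, where 10.3% of all 11307 genes tested passed and 5.17% were lower. By role they were 1 of 3 classical route genes and 1 of 6 receptors, and none of 2 lectin route genes, 2 soluble regulators, 3 membrane regulators and 1 alternative route gene. C4b, the mouse C4 that C1 cleaves, stood at 0.0150 in control, 0.411 and 0.392 in AKI, and 0.0378 and 0.0350 in CKD, and fell by 3.61 on the log2 scale from AKI to CKD (SE 0.17, edgeR adjusted p = 0.000234).

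C5ar2, the other receptor of C5a, stood in macrophage-like cells at 0.180, then 0.126 and 0.128, then 0.0775 and 0.0798, a log2 change of -0.84 (SE 0.19, edgeR adjusted p = 0.0296). Neither call held in edgeR without AKI 1 or without AKI 2, fits that leave 1 library in a group. Such fits cannot show whether a call rested on the library left out. The log2 change stayed between -3.65 and -3.55 for C4b, and between -0.90 and -0.80 for C5ar2, when each library was left out. With at most 15% mitochondrial UMIs 0 of the 17 passed, as did 0 of all 10944 genes tested. DESeq2 called 1, C4b, where 7.02% of all genes passed. The median log2 change of the 17 genes was -0.088, against -0.0062 over all genes tested.

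In PT-like cells 0 of 20 tested genes passed in edgeR, with a background of 0.440% of 12046 genes, and 8 of the 20 had an unadjusted p under 0.05, as did 14.2% of all genes tested. DESeq2 called 1 of them, where 2.20% of all genes passed. This was C4b, named here after its value was seen, with a log2 change of -0.95 in edgeR (SE 0.17, adjusted p = 0.0572). Counts of genes passing are not given for fits without a library, which leave 1 library in a group. The median log2 change of the 20 genes was 0.21, against 0.029 over all genes tested.

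In T lymphocyte-like cells 1 of 18 genes passed, higher in CKD, with a background of 9.99% (7.35% higher). It was C1qbp, whose product binds the heads of C1q but lies mostly in mitochondria, at 0.759 in control, 0.774 and 0.713 in AKI, and 1.23 and 1.01 in CKD, a log2 change of 0.58 (SE 0.10, edgeR adjusted p = 0.0291). Its call was lost without AKI 1 or without AKI 2, fits that leave 1 library in a group. Its log2 change stayed between 0.485 and 0.647 when each library was left out. The other 10 classes gave 0 calls of listed genes with edgeR and 0 with DESeq2, against an edgeR background of 0.985% in distal convoluted tubule-like, 0.139% in B lymphocyte-like, 0.0910% in dendritic-like, 0.0280% in intercalated-like, 0.0176% in thick ascending limb-like and 0% in endothelial-like, fibroblast/pericyte-like, natural killer-like, neutrophil-like and principal-like cells. At an unadjusted edgeR p under 0.05 they gave 7 of 13 genes in intercalated-like (10.9% of all genes tested there), 3 of 11 in endothelial-like (6.28%), 2 of 12 in thick ascending limb-like (11.4%), 2 of 5 in distal convoluted tubule-like (11.1%), 1 of 14 in fibroblast/pericyte-like (11.6%), 0 of 9 in dendritic-like (7.73%), 1 of 9 in principal-like (4.06%), 1 of 6 in natural killer-like (3.87%), 1 of 5 in B lymphocyte-like (4.40%) and 1 of 4 in neutrophil-like cells (4.74%).

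**Figure D5:**
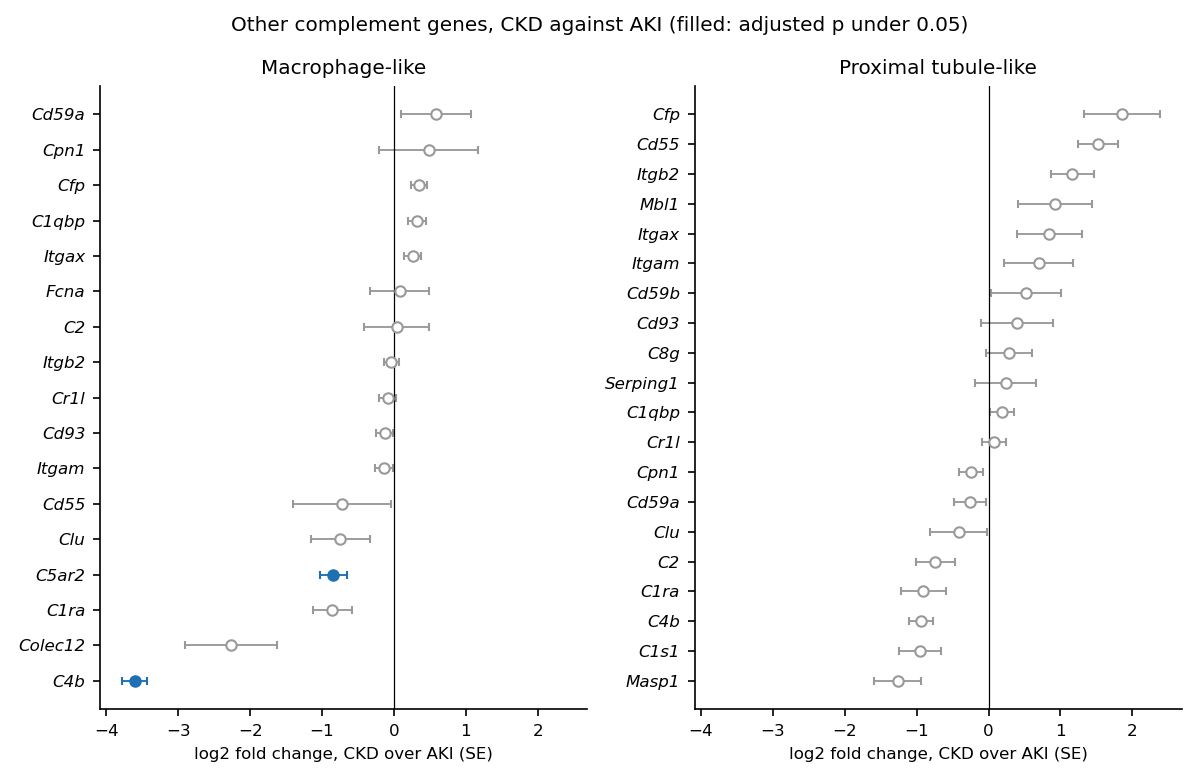
Log2 fold change of CKD over AKI of the other complement genes tested with edgeR in macrophage-like and PT-like cells, each from 2 against 2 libraries, with bars of 1 SE and filled points for an adjusted p under 0.05. In macrophage-like cells C4b (-3.61) and C5ar2 (-0.84) passed, and in PT-like cells none did.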

How the data were processed

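Kidney cells of 1 control, 2 AKI and 2 CKD libraries had been captured on the 10x platform. The authors deposited UMI counts per gene and cell, made according to their processing notes with Cell Ranger 7.2.0, STAR and GRCm39. The AKI and CKD file headers name Cell Ranger 5.0.0, and the control table is a re-exported matrix, so the software may differ between groups. The removal of free RNA and doublets described in the study is not part of these counts. The total was 72896 barcodes.

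Barcodes with over 30% mitochondrial UMIs or fewer than 200 genes were dropped, which left 60043, and 6325 were removed as doublets by a score against simulated doublets, at an expected 0.8% per 1000 cells. The study kept fewer cells. Counts were log-scaled, 3000 variable genes without complement genes gave 40 components, libraries were aligned by an own version of Harmony, and cells were grouped with leidenalg 0.10.2 (15 neighbours, resolution 1.5) into 49 clusters. Of these, 32 were named from marker lists when at least 3 markers were detected and the cluster held at least 100 cells, and 8540 cells stayed unnamed (11.2% to 23.9% per library). The rules for naming, and for keeping Ctsk- and Acp5-led clusters apart, were settled after the clusters were seen, so a difference from the study may come from rebuilt names. Levels needed at least 20 cells per class and library. A count of 0 was taken to allow up to 3 counts. Thinning left out cells under 1000 UMIs.

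Summed counts were tested with edgeR 4.0.16 (TMM, filterByExpr) in R 4.3.3, with DESeq2 1.42.0 as an alternative. Where leaving out a library left 1 in a group, that library was assumed to vary like the other group. On simulated counts for the macrophage-like comparison (11057 genes), edgeR recovered 69 of 100 genes changed by log2 1 and 95 of 100 changed by log2 2, with 4 false calls. For the PT-like comparison (11860 genes) it recovered 49 and 94 of 100, with 5 false calls. The likeness of genes used log2(level + 0.1) over genes with a mean level of at least 0.05. Other genes named are those that passed the edgeR test, and the 3 genes most like each member. The 9 genes, the gene lists and the tests were chosen with earlier results of these data known. An item of the list of other complement genes is not reported here. Alternatives covered the filters, doublets, alignment, complement genes in clustering, the denominator, the class limits, the replicate block and leaving out each library.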

Additional observations from a re-analysis of the deposited data

Results flagged for a closer look

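C3 moved in opposite directions between AKI and CKD in 2 cell classes. Both CKD libraries lay above both AKI libraries in fibroblast/pericyte-like cells (log2 ratio of CKD to AKI 1.78, or 1.18 without AKI 1 and 2.84 without AKI 2) and below them in PT-like cells (-2.40). Cfb did the same, with 0.79 in fibroblast/pericyte-like cells and -0.52 in PT-like cells. These differences between the classes were not tested. The fibroblast/pericyte-like levels of Cfb rested on 19 to 50 UMIs in the AKI and CKD libraries.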

How the results depend on the processing

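The ratios of the members other than C6, in selected classes, were computed again under each alternative tried. Of the values for CKD to AKI, 101 moved by less than the spread between libraries, 40 moved further and 5 reversed. For AKI to control these numbers were 112, 33 and 1, and a ratio counts again in each setting. For macrophage-like C1qa, the log2 ratio of CKD to AKI (-0.55) was -0.36 without library alignment, -0.63 with doublets kept, -0.84 with at most 15% mitochondrial UMIs, -0.997 with complement genes in the clustering, -0.71 as a mean over cells and -1.90 with the Ctsk- and Acp5-led clusters counted as macrophages, and -0.57 to -0.54 when each library was left out. Its ratio of AKI to control (0.29) was 0.17 without alignment, 0.26 at 15%, 0.31 with complement genes in the clustering, 0.23 without mitochondrial UMIs in the total, and 0.20 in the Ccl8-led cluster alone. PT-like C3 went from -2.40 to -1.96 (CKD to AKI) at 15%, and from 3.17 to 6.07 (AKI to control) at 15% or 4.18 as a mean over cells. At 15% a cluster with Spink1 among its leading genes was named injured tubule-like, so the PT-like class was not made of the same cells. When each library was left out, PT-like C3 ranged from -2.69 to -2.04 (CKD to AKI) and from 2.81 to 3.46 (AKI to control). The mean AKI share of cells with a UMI was 0.731% thinned and 4.33% unthinned for C6 in macrophage-like cells, and 27.9% thinned and 46.0% unthinned for C3 in PT-like cells. The mean AKI level of C6 ranged from 0.0692 to 0.0994 when each AKI library was left out.

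Reversals were few. Macrophage-like C3, level between AKI and CKD, had a log2 ratio of 0.35 without alignment, 0.0066 in the Ccl8-led cluster alone, -1.07 with the Ctsk- and Acp5-led clusters counted as macrophages and -0.118 to 0.0909 when each library was left out (0.05 without AKI replicate 1, 0.0909 without CKD replicate 1). Fibroblast/pericyte-like C3 had a log2 ratio of AKI to control of -0.28 without AKI replicate 2 and up to 1.38 when other libraries were left out, and endothelial-like Cfb had a log2 ratio of CKD to AKI of 0.0099 without AKI replicate 2 and down to -0.46 otherwise. The cause was not tested in any of these.

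Of the other complement genes, 2 of 17 passed in macrophage-like cells (10.3% of all genes tested) and 1 by DESeq2 (7.02%). With no filter on low counts 5 of 37 passed (10.6%), and at 15% mitochondrial UMIs 0 passed, as did 0 of all genes. With the Ctsk- and Acp5-led clusters counted, 11 of 21 passed (29.2% of all genes then). In PT-like cells 0 of 20 passed (0.440% of all genes) and 1 by DESeq2 (2.20%). With no filter 8 of 36 passed (5.54%), and 2 of 20 did without alignment (2.89%). In the other classes 1 of 106 passed (1.63% of all genes), and 14 of 295 with no filter (2.63%). Counts are not given for fits that leave 1 library in a group. With the replicate number as a block, 2 of 17 passed in macrophage-like cells, where 8.65% of all genes did. In PT-like cells 4 of 20 then passed (3.37% of all genes), and 6 of 106 in the other classes (2.77%). The libraries share only a number, however, and same-numbered deviations correlated by 0.0805 in macrophage-like and 0.1004 in PT-like cells. The 3 calls of single genes held in 27 settings and were lost in 10, each with its direction kept. Removing the control cells that share barcodes with CKD 2 moved none of these beyond the spread between libraries. The limits are 2 libraries per injured group, 1 control library, free RNA in the counts and, for C6, few UMIs.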
